A study of Mus musculus with 12 samples.

Results

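The phagocyte NADPH oxidase genes described here are Cybb, Cyba, Ncf1, Ncf4, Rac2, and Hvcn1, chosen by their symbols in the deposited count table, which holds 6 such genes of 35303 symbols. The rule used no measured value, and all 6 passed the filter on low counts. They were measured by poly(A) RNA-seq in 12 libraries of myeloid-derived suppressor cells (MDSCs), grown from bone marrow of wild-type female C57BL/6 mice aged 6 to 10 weeks with GM-CSF and IL-6 and purified by CD11b and Gr1. The 3 groups, with 4 biological replicates each, were unmodified MDSCs (MDSC), MDSCs carrying blank PLGA nanoparticles on their surface through azide-DBCO click chemistry (MDSC-NP-Blk), and MDSCs carrying rapamycin-loaded nanoparticles in the same way (CITED). Cells of all groups were kept for a further 24 hours in medium holding IL-6 at 40 ng/ml before RNA was taken. The preparation is a mixture of granulocytic and monocytic cells, and in bulk RNA fewer cells of a type and less RNA per cell cannot be told apart.

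The phagocyte NADPH oxidase is a membrane enzyme of neutrophils, monocytes, and macrophages that passes electrons from NADPH to oxygen and so makes superoxide. Its membrane core is a heterodimer of the Cybb and Cyba proteins, and its activation brings cytosolic proteins, Ncf1 and Ncf4 among them, together with GTP-bound Rac at the membrane. Hvcn1 is a voltage-gated proton channel that balances the charge moved by the enzyme. The reactive oxygen species made by this enzyme are known as part of how MDSCs suppress T cells, and loss of Cybb, Cyba, Ncf1, or Ncf4 function causes chronic granulomatous disease in people.

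In GRCm39 and the GENCODE annotation, Cybb is a gene of 13 exons on the minus strand of chromosome X (9301491 to 9354010) and Cyba a gene of 6 exons on the minus strand of chromosome 8 (123150422 to 123159706). Ncf1 lies on the minus strand of chromosome 5 (134248907 to 134258479, 11 exons) and Hvcn1 on the plus strand of the same chromosome (122344867 to 122382736, 7 exons). Ncf4 (plus strand, 78128982 to 78146784, 10 exons) and Rac2 (minus strand, 78443367 to 78457429, 7 exons) both lie on chromosome 15. Their canonical transcripts differ in length, from 793 bases for Cyba and 1483 for Ncf4 through 2721 for Ncf1 and 3484 for Rac2 to 4759 for Cybb and 5500 for Hvcn1. Little of these transcripts occurs in other genes, with at most 4.256% of the 31-base words of Rac2 and 1.672% of those of Ncf1 shared. Whether strand was used in counting is not stated. The genes on the opposite strand with a count held at most 0.746% of the Cybb count (Xk), 0.0305% of the Cyba count (Il17c), 0.998% of the Ncf1 count (Gtf2ird2), and 6.44% of the Hvcn1 count (Tctn1).

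The promoter sequence differed between the members that the RefSeq table covers, which were 3 of 6. The 250 bases before the RefSeq start site are shown for Cybb, Cyba, and Ncf1, the only members with an entry. They were read on the gene's strand from GRCm38.p6, at chrX:9469325-9469574 (Cybb), chr8:122432941-122433190 (Cyba), and chr5:134229626-134229875 (Ncf1), all on the minus strand. Capitals mark matches on either strand to the interferon response element, spelled as GAAA, any 2 bases, and GAAA. Ncf4, Rac2, and Hvcn1 have no entry.
Cybb: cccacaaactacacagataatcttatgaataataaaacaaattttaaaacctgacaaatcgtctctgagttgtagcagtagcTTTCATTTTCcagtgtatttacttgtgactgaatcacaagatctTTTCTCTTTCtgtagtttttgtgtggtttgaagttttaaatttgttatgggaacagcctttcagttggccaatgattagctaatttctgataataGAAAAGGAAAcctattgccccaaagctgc
Cyba: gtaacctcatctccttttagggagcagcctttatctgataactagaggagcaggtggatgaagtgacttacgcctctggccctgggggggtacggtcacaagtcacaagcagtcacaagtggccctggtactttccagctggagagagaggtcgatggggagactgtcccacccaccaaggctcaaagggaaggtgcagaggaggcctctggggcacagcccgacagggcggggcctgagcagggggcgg
Ncf1: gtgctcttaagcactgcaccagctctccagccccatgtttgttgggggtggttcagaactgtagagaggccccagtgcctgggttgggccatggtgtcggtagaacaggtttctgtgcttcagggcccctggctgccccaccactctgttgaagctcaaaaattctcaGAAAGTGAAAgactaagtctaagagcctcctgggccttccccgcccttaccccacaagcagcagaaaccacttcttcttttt
The Cybb promoter held 3 matches, of which the one closest to the start site lay at -29 to -20 on the gene's strand and the other two at -124 to -115 and -168 to -159 on the other strand. Ncf1 held 1 match, at -82 to -73 on the gene's strand, and the Cyba window held none. The motif occurs in 2.98% of the 32851 promoters of the same length. The PU.1 site was searched only as GAGGAA, a spelling that occurs in 23.3% of them on either strand and in none of the 3 windows. Shorter or other spellings of that site were not searched. These matches are descriptions of letters in a window, and binding was not measured.

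Library totals ranged from 20604809 to 37855478 counts, so that 3 counts, taken as the floor, were between 7.92e-06% and 1.46e-05% of a library (counting error only). Expression is given below as normalized counts, scaled with TMM factors to the mean library, and differences come from edgeR's quasi-likelihood test over 17676 genes with Benjamini-Hochberg adjustment. A gene is called here at an adjusted p under 0.05. The MDSC-NP-Blk libraries fell into pairs: over all genes, replicates 1 and 4 differed from replicates 2 and 3 with a chi-square per gene of 15.7 to 21.8, against 5.69 between replicates 1 and 4 and 5.91 between replicates 2 and 3, and no cause for this was tested. The relation between a gene's deviation from its mean and its transcript length also differed between libraries, with a Spearman rho of 0.194 to 0.309 for MDSC, -0.375 to 0.0662 for MDSC-NP-Blk, and -0.301 to -0.151 for CITED over 12156 genes. Scaling by library totals alone, without TMM, moved the median gene by -0.27 in CITED against MDSC and by -0.26 in MDSC-NP-Blk against MDSC on the log2 scale, and the changes below are relative to the TMM scale. The granulocytic markers fixed for this report were detected at high levels (7 of 7). The monocytic ones were also detected (6 of 6), although Cx3cr1 had only 13 to 60 counts in a library. Markers of neurons (3 of 3) and astrocytes (2 of 2) were at 0 in every library, although a label field names the CNS as the tissue. Of the oligodendrocyte markers, Mog had 1 count over the 12 libraries, whereas Mbp had 1492 to 3240 in a library. Of the microglia markers, Tmem119 had 993 to 2297 counts in a library and P2ry12 had 14 to 66, whereas Sall1 was at 0 throughout.

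All 6 oxidase genes were well expressed in MDSCs. Levels of different genes were compared per length, as counts per kilobase of canonical transcript scaled to a common total in every library. In MDSC, Cyba had the highest level of the members (1641 ± 61.8, SD, n = 4), which placed it at rank 69 of 17648 genes. Cybb (977 ± 50.1) and Ncf1 (949 ± 19.7) followed at ranks 141 and 145, and their libraries overlapped. Rac2 (452 ± 10.6), Ncf4 (371 ± 5.30), and Hvcn1 (83.4 ± 3.90) came next, each with libraries separate from those of its neighbors in this order. Hvcn1 was thus the least abundant member, at rank 1646. In MDSC-NP-Blk the order was the same, with Cybb and Ncf1 again overlapping. In CITED, Cyba rose in rank to 46, whereas Cybb moved to rank 244 and Ncf1 to rank 226, and the libraries of these 2 genes again overlapped (644 ± 30.4 and 709 ± 40.6 per length). Ranks are within a group and depend on the length scale, so they were not tested between groups.

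**Figure D1:**
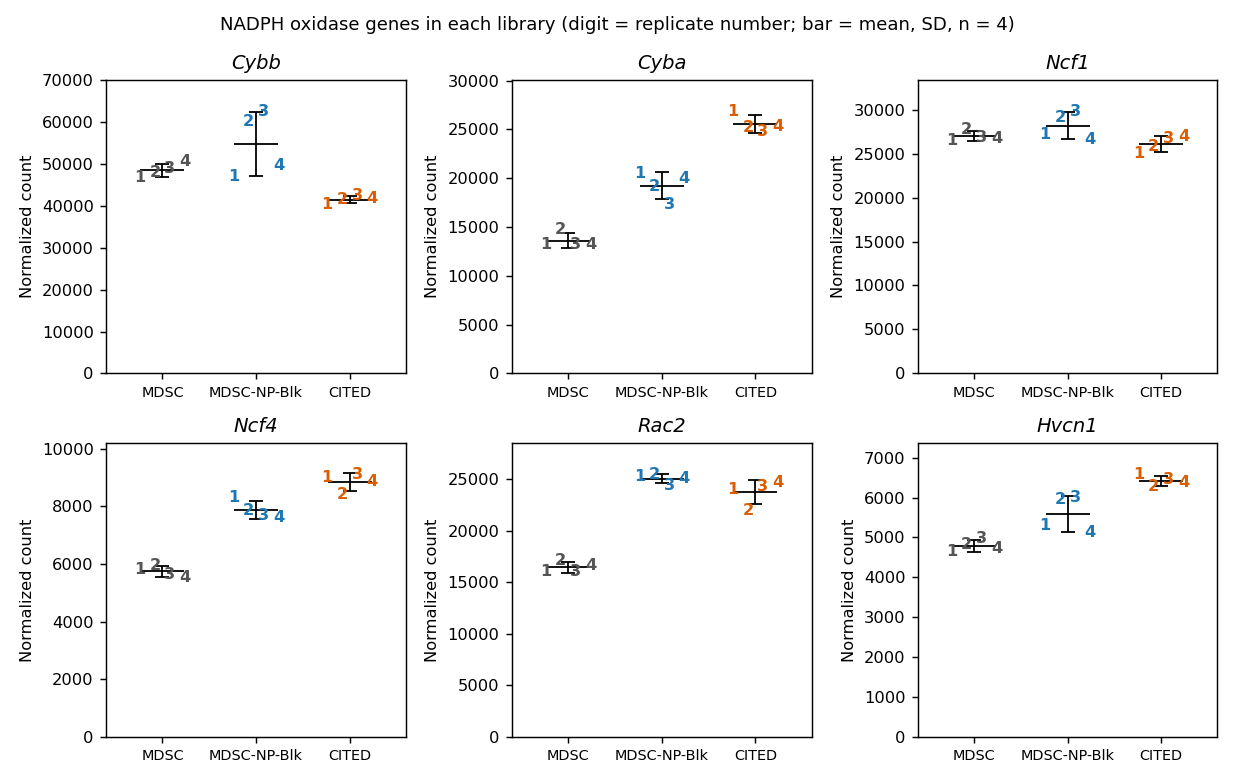
Normalized counts (y axis, from 0) of the 6 oxidase genes in the 3 groups, with each library drawn as its replicate number and the mean ± SD of 4 libraries as a black bar. Cyba rises from 13175 to 14771 in MDSC to 24818 to 26859 in CITED, whereas Cybb lies between 40181 and 42351 in CITED, below all MDSC libraries, and its MDSC-NP-Blk libraries fall into pairs.

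Cyba, the membrane subunit that stabilizes the Cybb protein, increased the most of the 6 genes in CITED. Normalized counts of Cyba were 13175, 14771, 13230, and 13209 for MDSC replicates 1 to 4, 20434, 19168, 17330, and 19954 in MDSC-NP-Blk, and 26859, 25223, 24818, and 25251 in CITED. Every MDSC-NP-Blk library was above every MDSC library, and every CITED library was above both. Cyba was 1.88-fold higher in CITED than in MDSC (log2 fold change 0.91, SE 0.0505, adjusted p = 6.5e-17, edgeR). The blank nanoparticle group was 1.41-fold higher than MDSC (0.50, SE 0.0502, adjusted p = 3.8e-10), and CITED was 1.33-fold higher than MDSC-NP-Blk (0.41, SE 0.0501, adjusted p = 6.9e-08). With a length correction, the difference of Cyba from MDSC was 0.72 in CITED and 0.26 in MDSC-NP-Blk, both still called. Of the 10556 genes with a mean normalized count above 50, 94.6% had a lower log2 fold change than Cyba in CITED against MDSC.

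Cybb, the catalytic subunit that carries flavin and heme, moved the other way in CITED. Normalized counts of Cybb were 46733, 47987, 48774, and 50476 for MDSC, 46945, 60077, 62550, and 49545 for MDSC-NP-Blk, and 40181, 41571, 42351, and 41789 for CITED. All CITED libraries were below all others. The MDSC-NP-Blk libraries were spread, with replicates 2 and 3 above every MDSC library and replicates 1 and 4 within the MDSC range. Cybb fell by 0.23 on the log2 scale in CITED against MDSC (SE 0.0585, adjusted p = 0.0016, edgeR), and by 0.40 in CITED against MDSC-NP-Blk (SE 0.0585, adjusted p = 1.8e-06). The first of these differences was -0.06 (adjusted p = 0.33) once transcript length was corrected for, so that its call depends on this correction. The second was -0.35 with the correction and stayed called.

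The difference in Cybb between MDSC-NP-Blk and MDSC depended on the libraries, the scale, and the fit. It was 0.18 (SE 0.0584, adjusted p = 0.015, edgeR) with all libraries, with overlapping groups. It was 0.34 without MDSC-NP-Blk replicates 1 and 4 and -0.02 (adjusted p = 0.73) without replicates 2 and 3, and leaving out MDSC-NP-Blk replicate 2 or 3 or MDSC replicate 1 alone also ended the call (adjusted p = 0.089, 0.12, and 0.052). With library totals alone as the scale it was -0.09, and the call was also lost with robust estimation (0.18, adjusted p = 0.087) and in a fit to the 8 libraries compared (0.16, adjusted p = 0.054). In CITED against MDSC-NP-Blk, Cybb remained lower with either pair left out, by -0.56 without replicates 1 and 4 and by -0.22 without replicates 2 and 3.

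Ncf1, the cytosolic organizer that is phosphorylated to start assembly, was not called in any comparison. Its normalized counts were 26482, 27756, 26877, and 26753 for MDSC, 27140, 29042, 29813, and 26598 for MDSC-NP-Blk, and 24974, 25826, 26705, and 26947 for CITED. The libraries of all 3 groups overlapped. The log2 fold change of Ncf1 was -0.05 in CITED against MDSC (SE 0.0441, adjusted p = 0.42, edgeR), 0.06 in MDSC-NP-Blk against MDSC (SE 0.0441, adjusted p = 0.29), and -0.11 in CITED against MDSC-NP-Blk (SE 0.0441, adjusted p = 0.079). The last of these passed the threshold with DESeq2 (adjusted p = 0.038), with library totals alone (0.043), and without MDSC-NP-Blk replicate 1 (0.041), replicate 4 (0.034), or both (-0.17, adjusted p = 0.0013). Relative to library totals alone, Ncf1 was lower than in MDSC in both nanoparticle groups, by -0.32 in CITED (adjusted p = 1.1e-07) and by -0.20 in MDSC-NP-Blk (adjusted p = 0.00022). Without MDSC-NP-Blk replicates 1 and 4, Ncf1 was called as higher in MDSC-NP-Blk than in MDSC (0.13, adjusted p = 0.017).

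Ncf4, the cytosolic subunit that binds phosphatidylinositol 3-phosphate on phagosomes, was higher in both nanoparticle groups. Its normalized counts were 5824, 5956, 5649, and 5548 for MDSC, 8309, 7854, 7691, and 7606 for MDSC-NP-Blk, and 8990, 8425, 9107, and 8881 for CITED. The 3 groups did not overlap, with MDSC lowest and CITED highest. Ncf4 was 1.54-fold higher in CITED than in MDSC (log2 fold change 0.62, SE 0.0472, adjusted p = 2.1e-13, edgeR), and 1.37-fold higher in MDSC-NP-Blk than in MDSC (0.45, SE 0.0471, adjusted p = 7.9e-10). The further step from MDSC-NP-Blk to CITED was small, at 0.17 (SE 0.0469, adjusted p = 0.0066).

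Rac2, the Rac GTPase of hematopoietic cells that switches the oxidase on, was higher with nanoparticles of either kind. Its normalized counts were 16013, 17066, 16067, and 16593 for MDSC, 25270, 25441, 24422, and 25043 for MDSC-NP-Blk, and 23980, 21995, 24266, and 24636 for CITED. MDSC libraries lay below all libraries of the other groups, which overlapped each other. Rac2 was 1.52-fold higher in MDSC-NP-Blk than in MDSC (log2 fold change 0.61, SE 0.0440, adjusted p = 1.5e-13, edgeR) and 1.44-fold higher in CITED than in MDSC (0.53, SE 0.0440, adjusted p = 2.2e-12). Between CITED and MDSC-NP-Blk the difference of -0.08 (SE 0.0438, adjusted p = 0.23) did not pass the threshold.

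Hvcn1, the proton channel, was called as higher in every comparison. Its normalized counts were 4638, 4817, 4965, and 4717 for MDSC, 5306, 5952, 6012, and 5119 for MDSC-NP-Blk, and 6579, 6268, 6446, and 6379 for CITED. The groups did not overlap, and MDSC-NP-Blk replicates 1 and 4 lay closest to MDSC. Hvcn1 was 1.34-fold higher in CITED than in MDSC (log2 fold change 0.42, SE 0.0520, adjusted p = 1.6e-08, edgeR), 1.17-fold higher in MDSC-NP-Blk than in MDSC (0.23, SE 0.0519, adjusted p = 0.00052), and 1.15-fold higher in CITED than in MDSC-NP-Blk (0.20, SE 0.0519, adjusted p = 0.0045). The difference of MDSC-NP-Blk from MDSC was 0.11 (adjusted p = 0.10) without MDSC-NP-Blk replicates 2 and 3, and -0.04 with library totals alone. The step from MDSC-NP-Blk to CITED was 0.10 (adjusted p = 0.16) without replicates 1 and 4 and 0.30 without replicates 2 and 3. With the length correction, the change of Hvcn1 in CITED against MDSC was larger, at 0.64. B cells also use Hvcn1, and the summed normalized counts of 5 B cell markers, all detected, were 264 to 330 for MDSC, 147 to 228 for MDSC-NP-Blk, and 75.2 to 106 for CITED, and the part of B cells in the change of Hvcn1 was not tested.

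In CITED against MDSC, 5 of 6 members were called, 4 of them higher (Cyba, Ncf4, Rac2, and Hvcn1) and Cybb lower, where 44.5% of all genes tested were called. Among the 10556 genes with a mean normalized count above 50, a level that all members exceed, 67.9% were called. The median log2 fold change of the members was 0.48, beside -0.05 over all genes tested. In MDSC-NP-Blk against MDSC, 5 members were called, all higher, beside 38.6% of all genes and 60.4% of those above the same level, and 3 members remained called without MDSC-NP-Blk replicates 2 and 3 (Cyba, Ncf4, and Rac2). The median of the members was 0.34 there, beside -0.03 over all genes tested. In CITED against MDSC-NP-Blk, where 22.0% of all genes and 34.9% of those above the level were called, 4 members were called, of which Cyba, Ncf4, and Hvcn1 were higher and Cybb was lower, with a median of 0.05 over the members and 0.00 over all genes tested. With library totals alone as the scale, the members called were 4 higher and 2 lower in CITED against MDSC. They were 3 higher and 1 lower in MDSC-NP-Blk against MDSC, and 3 higher and 2 lower in CITED against MDSC-NP-Blk. With the length correction, the members called in CITED against MDSC were 4 higher and 0 lower. All genes tested were 4514 higher and 3215 lower there with that correction. Against MDSC on that scale of totals, Cyba was at 0.64 in CITED and 0.24 in MDSC-NP-Blk, Ncf4 at 0.35 and 0.19, and Rac2 at 0.255 and 0.35, all still called, with Hvcn1 at 0.15 and Cybb at -0.50 in CITED. The shares of all genes whose libraries did not overlap between the groups were 42.5%, 35.6%, and 21.2% in these comparisons. With a further threshold of 1 on the absolute log2 fold change, which 9.99%, 4.74%, and 2.65% of all genes passed, 0 members were called by edgeR or by DESeq2, and since no member reached that fold, the count is also 0 at an unadjusted p under 0.05. The comparisons share libraries in pairs, so their results are not independent of each other. Granulocytic marker counts (7 genes, summed) were 343124 to 361353 for MDSC, 509771 to 521815 for MDSC-NP-Blk, and 365321 to 399189 for CITED, and monocytic ones (6 genes) were 43528 to 46371, 59880 to 62936, and 47974 to 50854. Both marker sums were thus highest in MDSC-NP-Blk. Eosinophils also use the oxidase, and the summed counts of 3 eosinophil markers, all detected, were 30870 to 36833 in MDSC, 24691 to 29516 for MDSC-NP-Blk, and 10054 to 10243 for CITED. Of these markers, Epx had a mean of 19824, 11677, and 3740 normalized counts in the 3 groups, Prg2 14377, 15175, and 5983, and Siglecf 332, 360, and 406, so that they did not move together. The part of these cell types in the changes of the members was not tested.

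**Figure D2:**
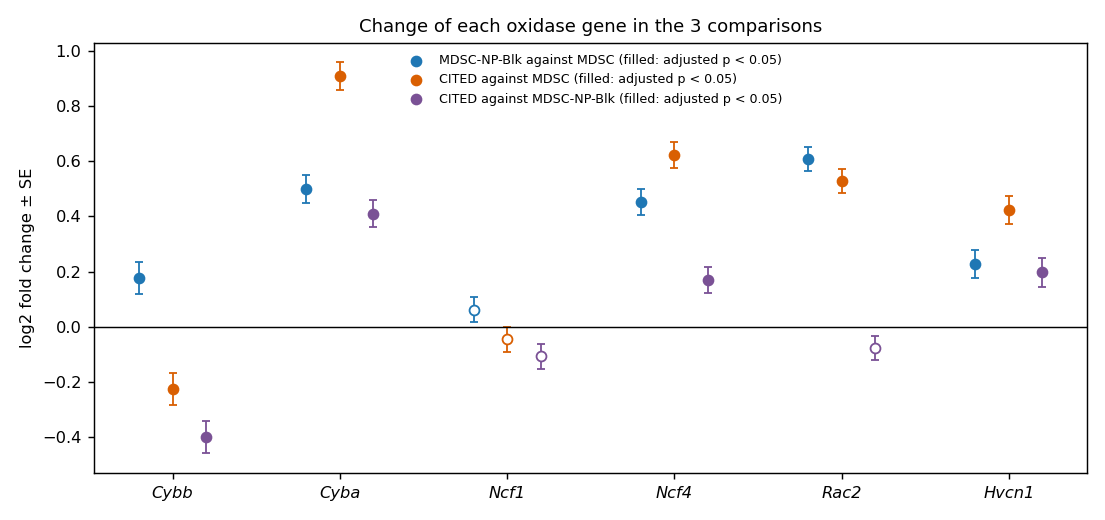
The log2 fold change (y axis, points with SE bars from the edgeR fit) of each member in the 3 comparisons, with filled points for genes called at an adjusted p under 0.05 and open points for others. Cyba (0.91) lies highest in CITED against MDSC, Cybb lies below 0 in both comparisons of CITED, and Ncf1 is open throughout.

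Partner genes changed in their proportion to each other. Ratios of counts within a library do not depend on how libraries were scaled, and 3 ratios in 3 comparisons were tested by exact two-sided permutation of 4 against 4 libraries, whose smallest possible p is 0.0286, with adjustment over the 9 tests. The ratio of Cybb to Cyba counts was 3.55, 3.25, 3.69, and 3.82 for MDSC replicates 1 to 4, 2.30, 3.13, 3.61, and 2.48 in MDSC-NP-Blk, and 1.5, 1.65, 1.71, and 1.65 in CITED. Every CITED library was below every other library, and the other two groups overlapped. The log2 ratio was lower by -1.14 in CITED against MDSC and by -0.80 in CITED against MDSC-NP-Blk (exact permutation p = 0.0286, adjusted p = 0.0368 for each), whereas its difference of -0.33 in MDSC-NP-Blk against MDSC had an exact permutation p of 0.0857 (adjusted p = 0.0964). The transcripts differ in length (4759 and 793 bases), and with the length correction the difference of the fitted log2 fold changes of Cybb and Cyba was -0.78 in CITED against MDSC, 0.03 in MDSC-NP-Blk against MDSC, and -0.81 in CITED against MDSC-NP-Blk. Without MDSC-NP-Blk replicates 1 and 4 the last of these was -1.05 without the correction, and without replicates 2 and 3 it was -0.56.

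The ratio of Ncf1 to Ncf4 counts was 4.55, 4.66, 4.76, and 4.82 for MDSC, 3.27, 3.70, 3.88, and 3.50 for MDSC-NP-Blk, and 2.78, 3.07, 2.93, and 3.03 for CITED. The 3 groups did not overlap. The log2 ratio differed by -0.67 in CITED against MDSC, by -0.39 in MDSC-NP-Blk against MDSC, and by -0.28 in CITED against MDSC-NP-Blk. Each difference had an exact permutation p of 0.0286 (adjusted p = 0.0368). With the length correction, the difference of the fitted log2 fold changes of Ncf1 and Ncf4 was -0.53, -0.26, and -0.27, in the same order. The ratio of Rac2 to the ubiquitous Rac1 was 1.88 ± 0.103 for MDSC, 2.24 ± 0.0845 for MDSC-NP-Blk, and 2.25 ± 0.157 for CITED (SD, n = 4). Both nanoparticle groups lay above MDSC by 0.26 on the log2 scale (exact permutation p = 0.0286, adjusted p = 0.0368 for each) and overlapped each other. The same difference for Rac2 and Rac1 with the length correction was 0.21 in CITED against MDSC and 0.22 in MDSC-NP-Blk against MDSC.

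**Figure D3:**
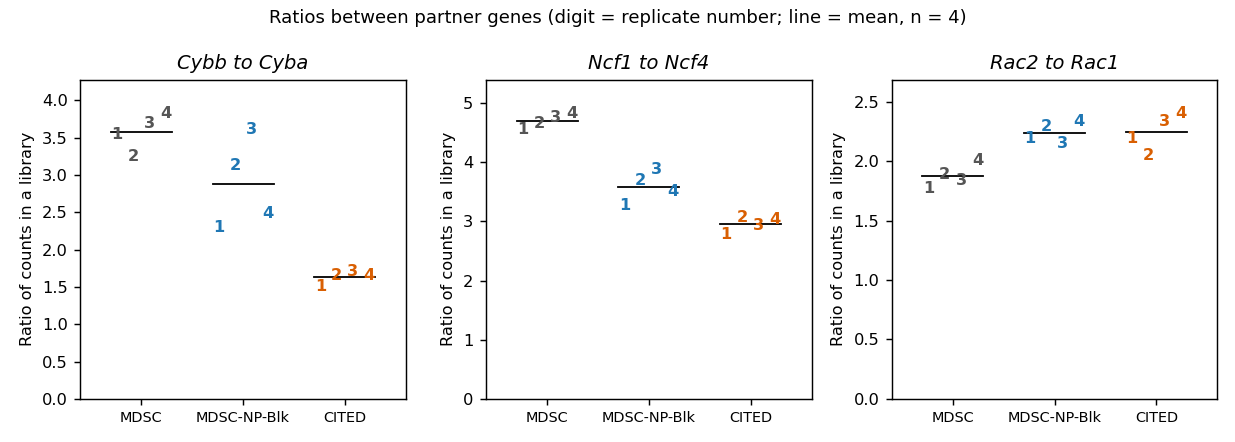
Ratio of counts (y axis, from 0) of Cybb to Cyba, Ncf1 to Ncf4, and Rac2 to Rac1 in each library, drawn as its replicate number, with the mean of 4 libraries as a line. The Cybb to Cyba ratio has a mean of 3.58 for MDSC, 2.88 for MDSC-NP-Blk, and 1.63 for CITED, with replicates 1 and 4 of MDSC-NP-Blk below replicates 2 and 3.

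Across the 12 libraries the members fell into 2 patterns. Log2 expression of Cybb and Ncf1 had a Pearson r of 0.882, and that of Cyba had an r of 0.965 with Ncf4, 0.892 with Hvcn1, and 0.819 with Rac2, whereas Cybb and Cyba had an r of -0.506. These are descriptions over 12 libraries that share 3 groups, depth differences, and the pairs of MDSC-NP-Blk libraries. Of 10556 genes with a mean normalized count above 50, those most like Cyba were Naaa (r = 0.995), a lysosomal amidase, Eif6 (0.995), a ribosome assembly factor, and Amdhd2 (0.994), an enzyme of amino sugar metabolism. Most like Cybb were Sgms2 (0.986), a sphingomyelin synthase, the transcription factor Sp3 (0.958), and Serpina3g (0.946), a serine protease inhibitor. Sgms2 was also among the genes most like Ncf1 (0.914), after Myo1d (0.925) and before Rybp (0.896). Arrb2 (0.996), Orai1 (0.995), and Grina (0.994) were most like Ncf4, and Smap2 (0.993), Ifitm2 (0.992), and Plp2 (0.992) most like Rac2. The cystine transporter Slc7a11 (0.984), the phosphate transporter Slc20a1 (0.979), and the kinase Sgk1 (0.977) were most like Hvcn1.

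Cybc1, the chaperone needed to make the Cybb and Cyba dimer, was higher than in MDSC by 0.17 in CITED (adjusted p = 0.0098) and by 0.26 in MDSC-NP-Blk (adjusted p = 0.00023). Rac1 rose by 0.27 in CITED (adjusted p = 7.7e-06) and by 0.35 in MDSC-NP-Blk (adjusted p = 1.2e-07). Rap1a, a small GTPase found with the membrane core, was called in MDSC-NP-Blk against MDSC (0.18, adjusted p = 0.0044) and not in CITED against MDSC (0.08, adjusted p = 0.23), and the test between CITED and MDSC-NP-Blk gave -0.10 (adjusted p = 0.17). These increases depend on the scale, since with library totals alone the difference from MDSC for Cybc1 was -0.10 in CITED and 0.00 in MDSC-NP-Blk, that for Rac1 was -0.01 and 0.09, and that for Rap1a was -0.20 and -0.08.

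The genes around the oxidase were taken from a list of 72, of which 68 were tested. In CITED against MDSC, 36 of the 68 were called higher and 17 lower, beside 22.2% of all genes in each direction and 35.6% and 32.3% of the 10556 genes with a mean normalized count above 50. In MDSC-NP-Blk against MDSC, 38 were higher and 9 lower, beside 19.9% and 18.6% of all genes and 32.1% and 28.2% of those above 50. In CITED against MDSC-NP-Blk 13 were higher and 13 lower, beside 10.5% and 11.4% of all genes and 16.9% and 18.0% of those above 50. The median log2 fold change of the list was 0.21, 0.20, and 0.02 in these comparisons, in the same order. With library totals alone, the split was 25 higher and 28 lower in CITED against MDSC and 19 higher and 24 lower in MDSC-NP-Blk against MDSC, where all genes tested went from 3930 higher and 3932 lower to 2192 and 6323 in the first and from 3522 and 3293 to 1662 and 6107 in the second. In CITED against MDSC-NP-Blk, the length correction gave 20 higher and 13 lower. All genes tested went there from 1862 higher and 2021 lower to 2543 and 1802 with the correction. The counts of the shorter lists that follow are to be read beside the same shares, and each depends on the scale in the comparisons with MDSC.

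Among the 15 other parts and regulators of the oxidase, 8 were higher and 4 lower in CITED against MDSC, and 4 were higher and 7 lower with library totals alone. Tiam1, an exchange factor that loads Rac with GTP, decreased with both treatments, from 2079 ± 135 normalized counts for MDSC to 1215 ± 69.7 for MDSC-NP-Blk and 779.6 ± 38.1 for CITED (SD, n = 4). Its log2 fold change was -1.41 in CITED against MDSC (adjusted p = 1.3e-18, edgeR), -0.78 in MDSC-NP-Blk against MDSC (7.0e-12), and -0.64 in CITED against MDSC-NP-Blk (4.2e-09).

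Of the 18 kinases upstream of the oxidase, 8 were higher and 5 lower in CITED against MDSC, and 8 were higher and 3 lower in MDSC-NP-Blk against MDSC. On the scale of library totals these counts were 6 and 10 in the first and 4 and 10 in the second. The MAP kinase gene Mapk3 rose in MDSC-NP-Blk (10197 ± 575 normalized counts) and CITED (10299 ± 145) from 6663 ± 258 in MDSC. Fgr, a Src-family kinase of myeloid cells, increased stepwise, from 5002 ± 295 for MDSC to 6895 ± 728 for MDSC-NP-Blk and 8264 ± 76.1 for CITED, and each step was called (adjusted p = 3.3e-08 and 0.00071, edgeR). Pak1, a kinase activated by Rac, fell by 1.03 on the log2 scale in CITED against MDSC (adjusted p = 1.8e-13), with -0.45 in MDSC-NP-Blk against MDSC (adjusted p = 7.5e-06).

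Transcription factors known to act on oxidase genes changed in both directions, with 6 of 13 higher and 6 lower in CITED against MDSC, and 8 higher and 2 lower in MDSC-NP-Blk against MDSC. On the scale of library totals these counts became 5 and 7, and 5 and 4. Cebpb had 6728 ± 415 normalized counts for MDSC, 13540 ± 893 for MDSC-NP-Blk, and 19120 ± 690 for CITED. It was thus 2.84-fold higher in CITED than in MDSC (log2 fold change 1.51, SE 0.0521, adjusted p = 2.9e-22, edgeR), and the step from MDSC-NP-Blk to CITED was 0.50 (adjusted p = 1.7e-09). Rela, the activating subunit of NF-kB, rose by 1.10 in CITED and 0.93 in MDSC-NP-Blk, and Irf1 by 0.88 and 0.75. Hoxa9 was lower, at 86.0 ± 10.3 normalized counts in CITED against 217 ± 27.1 in MDSC (log2 fold change -1.33, adjusted p = 2.8e-09), and Hoxa10 was near its detection limit, at 11.3 ± 3.31 and 25.8 ± 9.21 (-1.18, adjusted p = 0.032, overlapping libraries). Spi1, which encodes PU.1, and Irf8, both known regulators of Cybb, were named after their values were seen, as were Elf1, Cebpa, and Cebpe. Against MDSC, Spi1 rose by 0.70 in CITED and by 0.58 with blank nanoparticles, and Irf8 by 0.76 and 0.52. Elf1 changed by -0.52 and -0.23, Cebpa by -0.19 and 0.22, and Cebpe by -0.35 and 0.26, in the same order. Cybb was lower in CITED than in MDSC, a call lost with the length correction. The part of these factors in the change of Cybb was not tested.

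Of the 15 genes of superoxide and peroxide handling, 11 were called higher and 2 lower in CITED against MDSC, where 35.6% and 32.3% of the genes above 50 normalized counts were. In MDSC-NP-Blk against MDSC, 10 were higher and 1 lower, beside 32.1% and 28.2%. With library totals alone, 8 were higher and 4 lower in CITED, and 6 were higher and 4 lower in MDSC-NP-Blk. Sod2, the mitochondrial superoxide dismutase, had 4602 ± 209 normalized counts for MDSC, 9637 ± 469 for MDSC-NP-Blk, and 10703 ± 481 for CITED. Prdx5, a peroxiredoxin, went with it, from 26476 ± 1278 to 52810 ± 6447 and 57202 ± 2903. Both rose in the blank nanoparticle group already, by 1.07 and 1.00 on the log2 scale (adjusted p = 2.8e-18 and 7.5e-16, edgeR).

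Another peroxiredoxin and a glutathione peroxidase differed mainly between CITED and the other two groups. Prdx1 had 20064 ± 541 normalized counts for MDSC, 21947 ± 1061 for MDSC-NP-Blk, and 39740 ± 3230 for CITED, with a log2 fold change of 0.86 in CITED against MDSC-NP-Blk (SE 0.0495, adjusted p = 2.3e-15, edgeR) and of 0.13 in MDSC-NP-Blk against MDSC (adjusted p = 0.035), the latter turning to -0.13 with library totals alone. Gpx3 had 974 ± 49.6 normalized counts for MDSC, 1076 ± 51.8 for MDSC-NP-Blk, and 444 ± 24.9 for CITED, a fall by 1.28 against MDSC-NP-Blk (adjusted p = 4.2e-15). The extracellular dismutase gene Sod3 was near the floor, at 0 to 6.45 normalized counts in MDSC and 0 in all CITED libraries, and no fold change is given.

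The other NADPH oxidases were hardly detected. Nox3, Nox4, Duox1, and Duox2 had 0 counts in all libraries, Nox1 had 0 to 9.06 normalized counts in any library, and Noxa1 had 0 to 3.45. Noxo1, an Ncf1-like organizer of Nox1, had 16.7 ± 5.47 for MDSC, 17.7 ± 8.30 for MDSC-NP-Blk, and 15.0 ± 2.56 for CITED. None of these 3 detected genes was called by edgeR in any comparison, and none had an unadjusted p under 0.05, the lowest being 0.073.

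**Figure D4:**
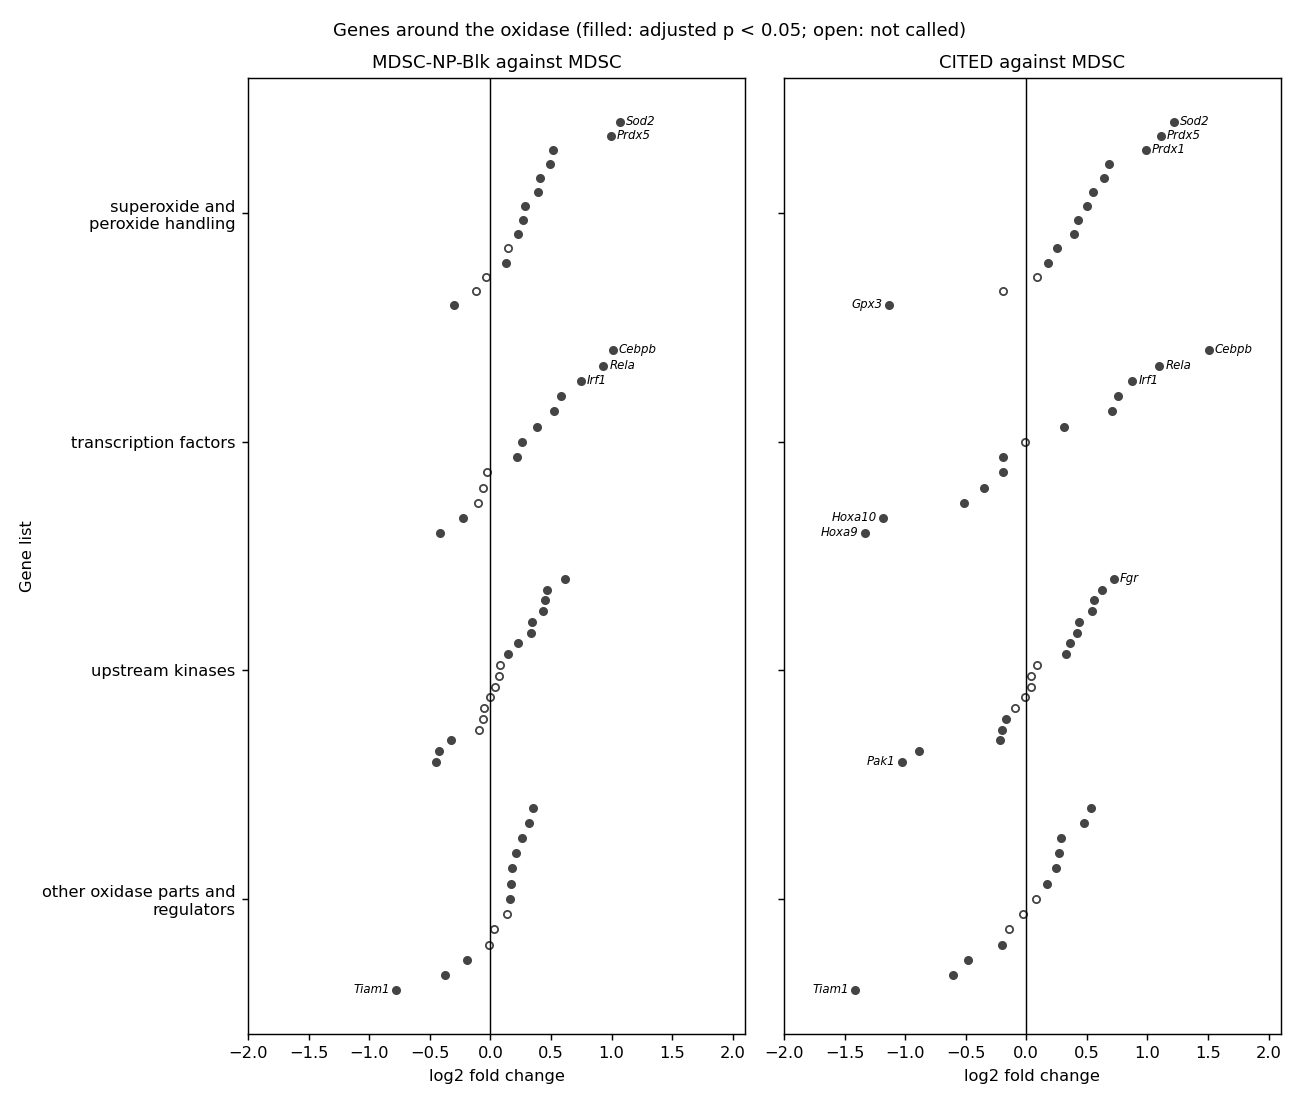
The log2 fold change (x axis) of part of the genes around the oxidase, by list (y axis) and with a mean normalized count above 5, in MDSC-NP-Blk and in CITED against MDSC, with filled points for genes called at an adjusted p under 0.05 and open points for others. Cebpb (1.51), Sod2 (1.22), and Tiam1 (-1.41) lie farthest from 0 in their lists in CITED, where Gpx3 lies at -1.13 and Hoxa9 at -1.33.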

How the data were processed

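The 12 poly(A) RNA libraries were put into 3 groups of 4 by their titles. Counts as deposited by the authors are whole numbers for each symbol, estimated with Salmon 1.4.0 against mouse GRCm39 transcripts and summed with tximport in R 4.3.2, without normalization or a filter. The GENCODE release and the use of strand are not given in the sources used here. An entry with no symbol, holding 0 counts, was left out. Depth was 20604809 to 37855478 counts per library.

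Genes whose 12 libraries held 2 or more counts in all were tested in edgeR 4.0.16 (R 4.3.3) with TMM factors, glmQLFit and glmQLFTest, group as the only term, all 12 libraries in 1 fit, and Benjamini-Hochberg adjustment. The common biological coefficient of variation was 9.03%. The length correction was a loess curve (span 0.5) per library over canonical transcripts of GENCODE M39. Log2 CPM for correlations used a prior count of 2. Ratios were tested with scipy 1.17.1. Figures were drawn with matplotlib 3.10.9. The edgeR step was tested on simulated data.

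Alternatives comprised DESeq2 1.42.0, RLE, upper quartile, and no factors, other filters on low counts, fits to 8 libraries alone, robust estimation, a length correction, a replicate block, and 12 fits that each left out 1 library. Fits without either pair of MDSC-NP-Blk libraries were added after seeing the data. No 2 libraries agreed within sampling noise. The members and lists were chosen with earlier results of these data known. Named besides the members were Cybc1, Rac1, Rap1a, the 3 genes of each list with the lowest p in CITED against MDSC, those called with a log2 fold change of 1 or more either way, and the 3 genes most correlated with each member. Some items that meet this rule are not reported here.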

Additional observations from a re-analysis of the deposited data

Results flagged for a closer look

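Among 30 groups of 4 libraries tested for 1 library that stood apart from the others (6 members and 4 partner genes), 2 were found, and chance gives about 1 in 20 groups. For Cyba, MDSC replicate 2 had 14771 normalized counts, and the other MDSC libraries had 13175 to 13230. The gap was 0.965 of the range of the group. For Cybc1, MDSC-NP-Blk replicate 2 had 2591 normalized counts, and the others had 2877 to 2884, with a gap of 0.976 of the range. Without MDSC replicate 2 the call of Cyba was kept in each comparison with MDSC, and over all fits that left out 1 library its log2 fold change was 0.88 to 0.95 in CITED and 0.47 to 0.54 in MDSC-NP-Blk.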

How the results depend on the processing

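Of 432 member log2 fold changes recomputed under an alternative (18 of them under 24 settings), 412 kept their direction and their side of the threshold, 8 lost the threshold, 7 gained it, and 5 turned direction. With library totals alone, Cybb (-0.0861), Ncf1 (-0.2002), and Hvcn1 (-0.0351) turned in MDSC-NP-Blk against MDSC, where the median gene shifted by -0.26. Without MDSC-NP-Blk replicates 2 and 3, Cybb (-0.0221) and Ncf1 (-0.0201) turned in the same comparison, and the number of members called there went from 5 to 3. Cyba, Ncf4, and Rac2 kept their direction and their side of the threshold in all 24 settings of each comparison. Leaving out 1 library at a time, 5 to 5 members were called in CITED against MDSC, 4 to 5 in MDSC-NP-Blk against MDSC, and 4 to 5 in CITED against MDSC-NP-Blk, and 49 to 53, 42 to 47, and 24 to 31 genes of the pathway list. The numbers of members called with the fold threshold stayed at 0 in all settings. Deviations of log2 CPM from the group means were compared between libraries of different groups over 10556 genes. They correlated at -0.0597 to 0.14 for libraries with the same replicate number and at -0.161 to 0.156 for other pairs. The numbers were therefore not taken to pair the samples. With the number as a replicate block, 5, 5, and 4 members were called. For the subunit ratios, 0 of 9 comparisons passed with the replicate block, because an exact permutation within 4 pairs cannot go below p = 0.125, against 7 without it. The ratio test was not run without 1 library, since an exact permutation of 3 against 4 cannot go below p = 0.0571. Depth did not limit the members, whose normalized counts were 4638 or more in every library, but Hoxa10, Sod3, Nox1, Noxa1, and Noxo1 had few. Samples are biological replicates per the methods.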
